A study of Schizosaccharomyces pombe with 2 samples.

Results

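The interior of the long arm of chromosome II of fission yeast (Schizosaccharomyces pombe) was taken as the 10 kb bins of II that begin from 2000 kb to 4000 kb along the chromosome and hold values. The rule uses position only, and all 201 such bins had values, out of 1218 bins with values on the 3 chromosomes. They lie on the right arm of II, which runs 2917 kb from the middle of the centromere to the chromosome end, and they include the mating-type genes and hsp16. A bin is named here by its first base.

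Contacts were measured by Hi-C, in which fixed chromatin is cut, the cut ends are joined again and the joined pieces are sequenced, so that loci that lay close together are read as pairs. The strain carried sap1-1, a mutant allele of sap1, whose product is an essential DNA-binding protein. Cells grew in rich medium (YEA) at 26 °C, were moved to 33 °C for 6 hours and were fixed with 3% formaldehyde for 20 min before HindIII digestion. The 2 samples form 1 group without a control strain, so nothing below is a difference between strains. No other allele, and no mating type, is named in the labels.

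The values form 1 map, and the sources used here do not state whether it pools both samples, so there was no replicate error and no test. Each value is a mean corrected contact per pair of bins, in arbitrary units in which every bin sums to the same total over the genome. The reads behind the values were recovered, and the 201 bins held 15944 to 90810 reads each (median 57702), against a median of 58761.5 over all bins with values. Ranges in parentheses after a value are 95% Poisson intervals on those reads. They cover counting error only, and they leave out the error of any median or mean that a value was divided by. Arm bins are the 1068 bins that keep 200 kb away from both chromosome ends and 100 kb away from the centromere middle. The 201 bins were compared with the other 867 of these.

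Interphase chromosomes of fission yeast are held in a Rabl-like layout: the centromeres are clustered at the spindle pole body, the telomeres lie at the nuclear envelope, and the arms run between them. Along the arms, short domains of a few genes each are formed with the help of cohesin, often with borders near convergent genes. The mating-type region on the right arm of II holds mat1, whose cassette is expressed and decides the mating type, and the silent cassettes mat2 and mat3, which are kept in heterochromatin and serve as donors when mat1 switches. Sap1 is known to bind beside mat1, where it acts in switching, and also at LTRs and at replication fork barriers.

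The ends of the mat1 and mat3 cassettes are shown first, because reads inside them cannot be assigned to one cassette. In the reference used (ASM294v3 from RefSeq, plus strand), mat1 and mat3 share an identical run of 1323 bases, at chrII:2114100-2115422 and chrII:2132467-2133789. Capitals mark the shared run and lower case marks the flank that belongs to one locus.
mat1 left junction, chrII:2114070-2114129: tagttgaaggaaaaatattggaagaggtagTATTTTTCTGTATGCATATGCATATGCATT
mat3 left junction, chrII:2132437-2132496: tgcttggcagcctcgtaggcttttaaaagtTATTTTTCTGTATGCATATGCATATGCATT
mat1 right junction, chrII:2115393-2115452: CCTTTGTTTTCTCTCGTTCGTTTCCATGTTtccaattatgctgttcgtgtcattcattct
mat3 right junction, chrII:2133760-2133819: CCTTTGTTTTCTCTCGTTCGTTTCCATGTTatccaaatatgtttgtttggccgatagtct
The genes mat1-Mc and mat1-Mi lie in bin 2110001, and mat3-Mc and mat3-Mi lie in bin 2130001. Of the 30-base words of bin 2110001, 13.0% recur in bin 2130001.

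The HindIII sites around these loci are shown because they set which stretch of DNA a contact can report. Capitals mark the cut site, and the coordinates are those of the printed stretch on the plus strand of ASM294v3.
mat1 left site, chrII:2109727-2109772: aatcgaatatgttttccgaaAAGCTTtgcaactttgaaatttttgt
mat1 right site, chrII:2120422-2120467: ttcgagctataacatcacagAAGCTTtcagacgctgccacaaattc
mat3 left site, chrII:2128602-2128647: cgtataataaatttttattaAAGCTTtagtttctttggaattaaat
mat3 right site, chrII:2134620-2134665: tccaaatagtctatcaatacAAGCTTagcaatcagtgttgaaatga
hsp16 left site, chrII:2658147-2658192: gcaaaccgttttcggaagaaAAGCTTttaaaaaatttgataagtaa
hsp16 right site, chrII:2663184-2663229: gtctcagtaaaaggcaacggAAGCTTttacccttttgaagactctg
The mat1 fragment was 10695 bases long and spanned bin 2110001 whole, so that this bin held no site. The mat3 fragment was 6018 bases long and the hsp16 fragment 5037, against a median of 1192 bases over the 1109 fragments of the 201 bins. Bin 3620001 (mbx2, rps1801) was the only other of the 201 bins without a site, inside a fragment of 14445 bases. These 2 bins held 25861 and 31636 reads.

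Within the 201 bins, contact fell with separation much as on the other arms. The mean was 4914 (4904 to 4923) at 10 kb, 398 (396 to 401) at 100 kb, 43.8 (42.8 to 44.9) at 500 kb and 23.5 (22.6 to 24.5) at 1000 kb. Against pairs of the other arm bins, the ratio at these separations was 0.983, 0.988, 1.01 and 1.04. It was below 1 at 1900 kb, where 12.8 (10.9 to 15) over 11 pairs stood against 15.8 over 154 pairs. At that separation the other pairs all came from the left arm of I, so the comparison differs from that at shorter separations. Each of those 11 pairs joined a bin on the centromere side of mat3 to a bin at the far edge of the 201 bins, and so crossed the mat3 bin. The exponent, which is the slope of log10 contact on log10 separation, was -1.25 from 20 to 1000 kb (standard error of the fit 0.013), against -1.26 for the other arm bins. From 1000 to 2000 kb the slope was -1.01 (standard error 0.031) for the 201 bins and -0.62 (standard error 0.011) for the left arm of I, the only other arm long enough to be fitted there apart from the whole right arm of II (-0.92).

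The decay was not even along the arm, because the 200 kb nearest the centromere stood apart. The 201 bins were divided into 10 stretches of 200 kb, the last with 1 bin more. In the first stretch the exponent from 20 to 100 kb was -1.42 (standard error 0.060), while in the other 9 stretches it ran from -1.17 to -1.11. Contact over the mean of all arms at the same separation was 1.09 (1.08 to 1.09) at 10 kb in the first stretch and 0.692 (0.667 to 0.719) at 100 kb. At 100 kb the other 9 stretches had 0.978 to 1.06. At 150 kb the first stretch had 0.691 (0.644 to 0.741) and the others 0.969 to 1.13. Neighbouring bins thus met slightly more often in the first stretch, and bins 100 kb or more apart met less often, than in each of the other 9.

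**Figure D1:**
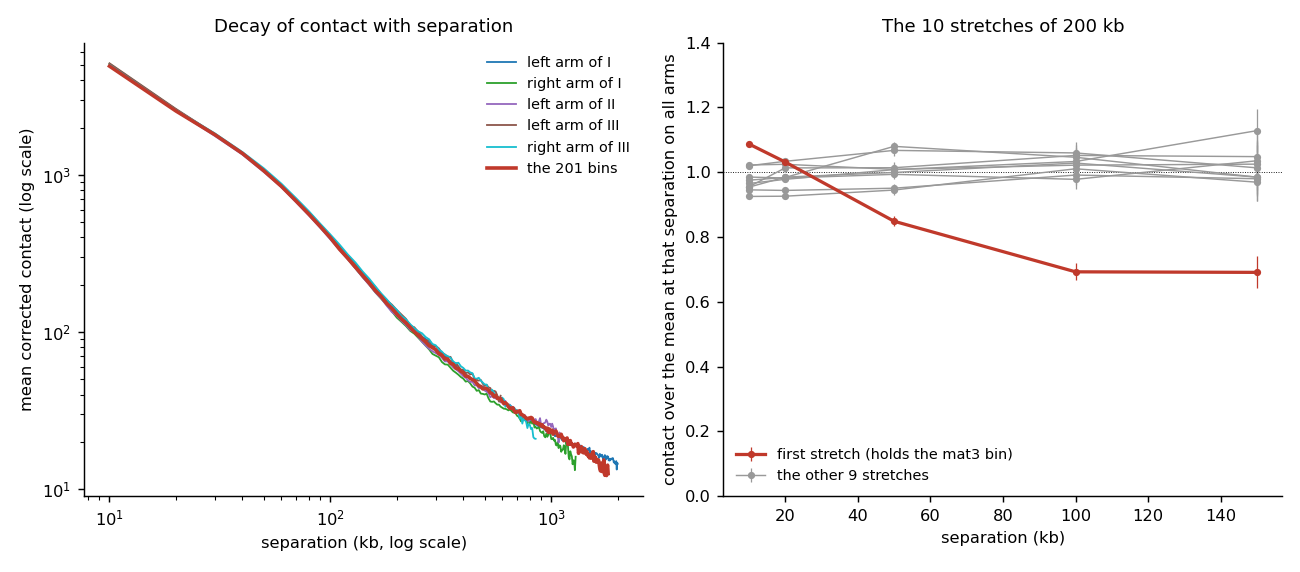
Left, mean corrected contact against separation (both log scales) for the 201 bins and for the arm bins of each of the other 5 arms, where at least 20 pairs were averaged. Right, contact within each of the 10 stretches over the mean at that separation on all arms, with 95% Poisson intervals: the first stretch falls to 0.691 at 150 kb, where the other 9 lie between 0.969 and 1.13.

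For pairs 30 to 100 kb apart, the break lay at the mat3 bin. Contact between bins on opposite sides of bin 2130001 was 0.611 (0.596 to 0.625) of the mean at the same separations for pairs 30 to 50 kb apart and 0.635 (0.624 to 0.646) for pairs 60 to 100 kb apart. Both were the lowest of the 1056 arm bins that could be measured. For pairs 110 to 200 kb apart the ratio was 0.706 (0.697 to 0.716), with 3 arm bins lower, and for pairs 210 to 500 kb apart it was 0.837 (0.83 to 0.845), with 60 lower. Farther out it was lower again, with 0.798 (0.79 to 0.805) at 510 to 1000 kb, where 121 arm bins were lower, and 0.748 (0.739 to 0.757) at 1010 to 1500 kb, where 193 were. Away from mat3 the lowest ratios on this stretch of arm were 0.766 at 30 to 50 kb and 0.839 at 60 to 100 kb. The cassette genes mat3-Mc, which encodes an HMG-box transcription factor of the M mating type, and mat3-Mi are the only symbols in that bin under the naming rule. Bin 2130001 also had the highest AT content of the 201 bins (69.3%, range 59.4% to 69.3%), no convergent gene pair and 5 HindIII sites. The reference used holds none of the listed mat2 genes. The part that missing sequence may have in the ratios across mat3, or in its insulation score below, was not tested.

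The 3 bins with the least contact with the rest of the 201 bins at 100 kb and beyond lay on the centromere side of mat3. All or most of their pairs at that distance cross it. Over the 201 bins that measure had a median of 1.002 of the mean at the same separations and an SD of 0.084. Its lowest values were 0.732 (0.712 to 0.752) at 2090001 (edc3, an enhancer of mRNA decapping, and mas2), 0.741 (0.723 to 0.759) at 2120001 (rpt6, a proteasome ATPase, and rpp202) and 0.76 (0.738 to 0.782) at 2080001 (aim21, rps21). Its highest values were 1.21 (1.19 to 1.23) at 3010001 (gsf1, slm9) and 1.2 (1.17 to 1.23) at 3980001, the bin of ste11, which encodes a transcription factor of sexual differentiation. Just beyond mat3, 2140001 (tam9, rpl401) had 0.796 (0.778 to 0.813), with 0.617 over its inward pairs, which cross mat3, and 0.832 over its outward pairs, which do not. The part of the crossing in these values was not tested. All these bins were chosen after their values were seen.

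Domains were read from an insulation score, the log2 of contact between the 50 kb on either side of a bin over the chromosome's mean. A boundary was a minimum at least 0.1 below the higher of the flanking maxima. Among the 201 bins 36 were boundaries (17.9%), and the share over all arm bins was 17.3%. Reads without the correction gave 58, and a depth of at least 0.2 left 23. The boundaries lay 20 to 130 kb apart, with a median of 50 kb (quartiles 40 and 70 kb, 35 gaps), against a median of 60 kb on the rest of the arms. Their median depth was 0.24, and it was 0.27 on the rest of the arms. The mat3 bin was the deepest of the 36, with a depth of 0.64, while the highest depth on the rest of the arms was 1.25. Its score was -0.69 with the 50 kb windows. With windows of 30, 50, 100 and 200 kb its score was the lowest of all 1068 arm bins. In reads without the correction the mat3 bin was no boundary: the minimum lay in the next bin, 2120001, with a depth of 0.67 and a score of -0.79, where the mat3 bin had -0.78 and 18 arm bins scored lower than it.

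The other 9 of the 10 deepest boundaries were spread from 2160001 to 3620001 and were shallower. Bin 3200001 had a depth of 0.46 and holds plh1, an acyltransferase of lipid storage, and cnd1, a subunit of condensin. Bin 3270001 (egd2, a subunit of the nascent polypeptide-associated complex, and hrf1) had 0.40. Bin 2550001 (gas2, a glucanosyltransferase of the cell wall, and tri1) had 0.39. Bin 3620001 (mbx2, a MADS-box transcription factor, and rps1801), which holds no HindIII site, had 0.37. The remaining 5 had depths of 0.32 to 0.33. They were 2160001 (pwp1, prp16), 2930001 (opa3, ypt1), 3180001 (gpc1, mam33), 2480001 (nak1, rga5) and 2750001, the bin of sfc3, a subunit of the RNA polymerase III factor TFIIIC, and spc24, a kinetochore protein. The depth of 3200001 was 0.46 below one flank only and 0.013 below the other. At 3180001, 2480001 and 2160001 the lower flank gave 0.014, 0.049 and 0.057. The rule asks for 0.1 below the higher flank only. Lower flanks under 0.1 also occurred among the shallower boundaries, such as 2050001 (0.016) and 3400001 (0.013). At 3620001 the depth was alike on both flanks (0.37 and 0.37).

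**Figure D2:**
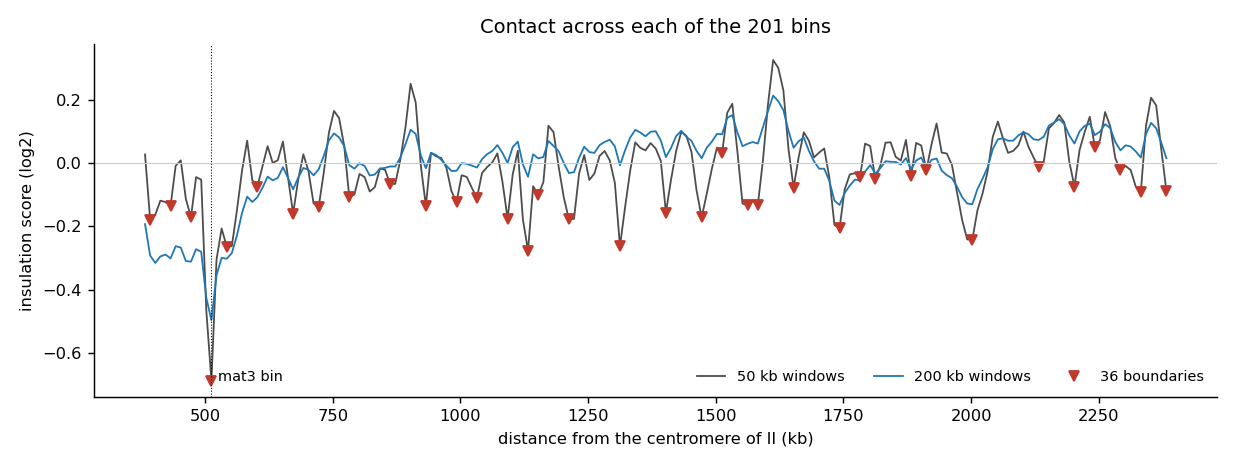
Insulation score (log2) of the 201 bins with windows of 50 kb and 200 kb on each side, against distance from the centromere of II. Triangles mark the 36 boundaries; the mat3 bin has the lowest score (-0.69).

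Most boundary bins held a convergent gene pair, that is, neighbouring genes read towards each other. Of the 36 boundary bins 33 held one (91.7%), as did 132 of the other 165 bins (80.0%), with means of 1.61 and 1.15 pairs per bin. The 3 boundary bins without one were those of mat3, of mbx2 and 3820001 (spt4, psg1). A tRNA gene lay in 4 boundary bins (11.1%) and in 10 of the others (6.06%), a ribosomal protein gene in 6 (16.7%) and in 20 (12.1%), and an LTR in 5 (13.9%) and in 15 (9.09%). Over all arm bins the shares were 80.8% for a convergent pair and 9.08% for a tRNA gene. They were 10.5% for a ribosomal protein gene and 13.4% for an LTR. For tRNA genes, with only 4 boundary bins, and for LTRs the boundary bins thus lay near the share of all arm bins. These counts were not tested. The boundaries enclosed 33 domains of at least 2 bins. Contact inside a domain was 0.915 to 1.30 of the mean at the same separations (median 1.02), and it was above 1 in 25 of them. The highest value, 1.30, belonged to the domain from 2090001 to 2130001, which holds mat1.

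Averaged over 20 to 50 kb, contact spread little along the arm. Over the mean of all arms at the same separations it was 0.996 ± 0.079 (SD, n = 201 bins), against 1.002 ± 0.078 for the other 867 arm bins. The average joins separations that differed: in the first stretch the ratio was 1.03 (1.02 to 1.04) at 20 kb and 0.849 (0.834 to 0.864) at 50 kb. The other 9 stretches had 0.926 to 1.03 at 20 kb and 0.945 to 1.08 at 50 kb. The means of the 10 stretches over 20 to 50 kb spread with an SD of 0.027. The lowest bins were 2730001 with 0.773 (fbh1, a DNA helicase, and cdh1), 2110001 with 0.81 (mat1-Mc, mat1-Mi), the first bin with 0.833 (ssr4, a subunit of chromatin remodellers, and mtm1), the bin of tim44 and of cut2, the securin, with 0.834 and 2140001 with 0.835 (tam9, rpl401). The highest were 3950001 with 1.21 (pph3, a protein phosphatase, and iml1), 2550001 with 1.21 (gas2, tri1), the last bin with 1.16 (vti1, a SNARE, and dad4), 3260001 with 1.15 (spt7, a subunit of SAGA, and cct7) and 3220001 with 1.15 (cdc7, a kinase of septation, and ppk24). The 201 bins held 873 protein-coding genes, 4.34 per bin against 4.13 in the other arm bins, and 22 LTRs, 0.11 per bin against 0.17.

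The 201 bins kept most of their contacts on their own arm. Of their off-diagonal signal, 77.6% joined the right arm of II, 4.82% the left arm of II, 12.8% chromosome I and 4.75% chromosome III. The own-arm share ran from 69.6% at 2110001, the bin of mat1, to 81.5% at 3260001. By stretch it was 73.6% in the first and 79.7% in the stretch that begins at 3200001. The share of the left arm of II ran the other way, from 6.6% in the first stretch to 3.96% in that one.

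Contact with each other arm was set against the mean of inter-chromosomal pairs of arm bins at the same distances from their centromeres. That mean includes the pairs of the 201 bins themselves. Of these bins, 78 lay farther out than the arm bins of every other arm except the left arm of I. Where partners on that arm lay as far out, the mean came almost only from pairs of the right arm of II with the left arm of I. This draws the ratio of the left arm of I towards 1. The left arm of II, on the same chromosome, had the highest ratio. It was 1.43 (1.42 to 1.43) for that arm. This was not particular to the 201 bins: over all arm bins, the ratio between both arms of one chromosome was 1.42 for I, 1.46 for II and 1.65 for III. For the 201 bins the ratio was 1.04 (1.04 to 1.05) for the right arm of I and 1.02 (1.02 to 1.02) for the left arm of I. It was 1.01 (1.001 to 1.01) for the left arm of III. It was 0.938 (0.934 to 0.942) for the right arm of III. Reads without the correction gave 0.957 for the left arm of III, so the side of 1 on which that arm lies depends on the correction. The bin of mat3 had the lowest ratio of the 201 bins with both arms of I and with the left arm of III (0.777, 0.791 and 0.788). These ratios use arm bins only and leave out the 200 kb at each end. Of its signal, 6.62% joined the whole right arm of I with its end, the highest share of the 201 bins (median 3.92%). For the whole left arm of I its share was the lowest, 7.01%. The highest ratio with the left arm of II was 1.82, at 3620001.

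Contact with the other arms followed the distance from the centromere. For each other arm, contact was higher where both partners lay within 100 kb of the same distance from their own centromeres than where they lay 1000 kb or more out of step. The ratio of these means was 1.22 for the left arm of I (14.4 against 11.7) and 1.33 for the right arm of I. It was 1.37 for the left arm of II, 1.47 for the right arm of III and 1.50 for the left arm of III. On the arms other than the left arm of I, 78 to 149 of the 201 bins lay farther out than the arm reaches. Near pairs there came mostly from the inner bins and far pairs also from the outer ones, so the ratios are not comparable between arms. On the left arm of I, the only other arm longer than the 201 bins reach, the class of highest contact moved outward with each stretch or stayed. It began 100 kb from the centromere for the first stretch, 400 kb for the third, 1400 kb for the fourth, 2600 kb for the sixth and 3500 kb for the last 2. On the shorter arms the class for the last stretch began at 1400 kb on the right arm of I, 1100 kb on the left arm of II, 800 kb on the left arm of III and 900 kb on the right arm of III.

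**Figure D3:**
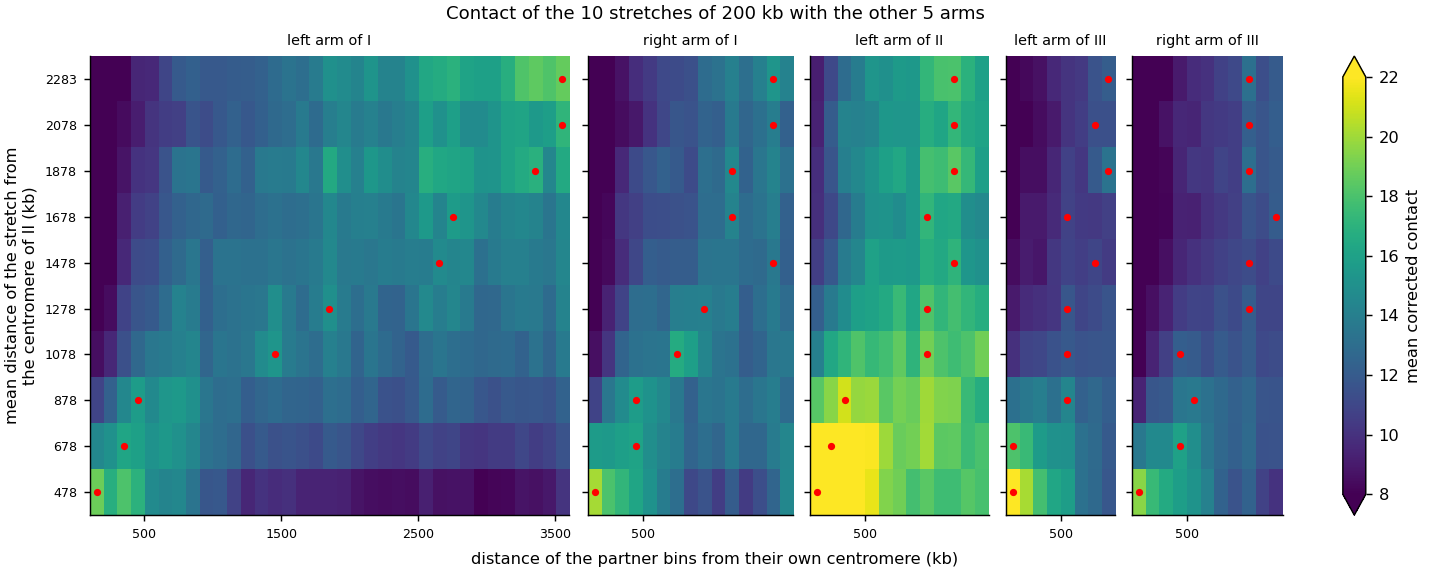
Mean corrected contact of each stretch of 200 kb (rows, by mean distance from the centromere of II) with 100 kb classes of each other arm (columns, by distance from that arm's centromere). Red dots mark the highest class of each row, which on the left arm of I runs from 100 kb for the first stretch to 3500 kb for the last 2.

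Contact with the chromosome ends was raised at a few places on the arm. The end windows were the outermost 5 bins with values, and a bin was counted when its contact was at least 2 times a running median, taken over the bins up to 100 kb away in both directions. The windows of I and II lay at unlike distances from their ends. Their bins lay 19 to 59 kb from the right end of I, and 10 kb and 50 to 80 kb from its left end. On II they lay 30 to 70 kb from the left end and 50 to 90 kb from the right end. With the left end of II 12 of the 201 bins were counted (5.97%), where 1.97% of all arm bins were. With the right end of II, the end of their own arm, there were 9 (4.48%, all arm bins 2.34%). With the left end of I there were 10 (4.98%, all arm bins 2.06%), and with the right end of I also 10 (4.98%, all arm bins 1.5%). With the left and the right end of III there were 0, where all arm bins had 0.0936% for each. The ends of III border the ribosomal DNA. In all, 19 bins were counted with at least 1 of the ends of I and II (9.45%, all arm bins 4.78%). With all of these ends 4 were counted (1.99%, all arm bins 0.375%): 2110001, 2130001, 2660001 and 2670001. No test was possible. In reads without the correction 7 bins passed for the left end of II, of which 3 were among the 12, and 4 for the right end of II, all among the 9. Bins 2110001 and 2130001 passed for neither end of II there, so that they were no longer counted with all of the ends.

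**Figure D4:**
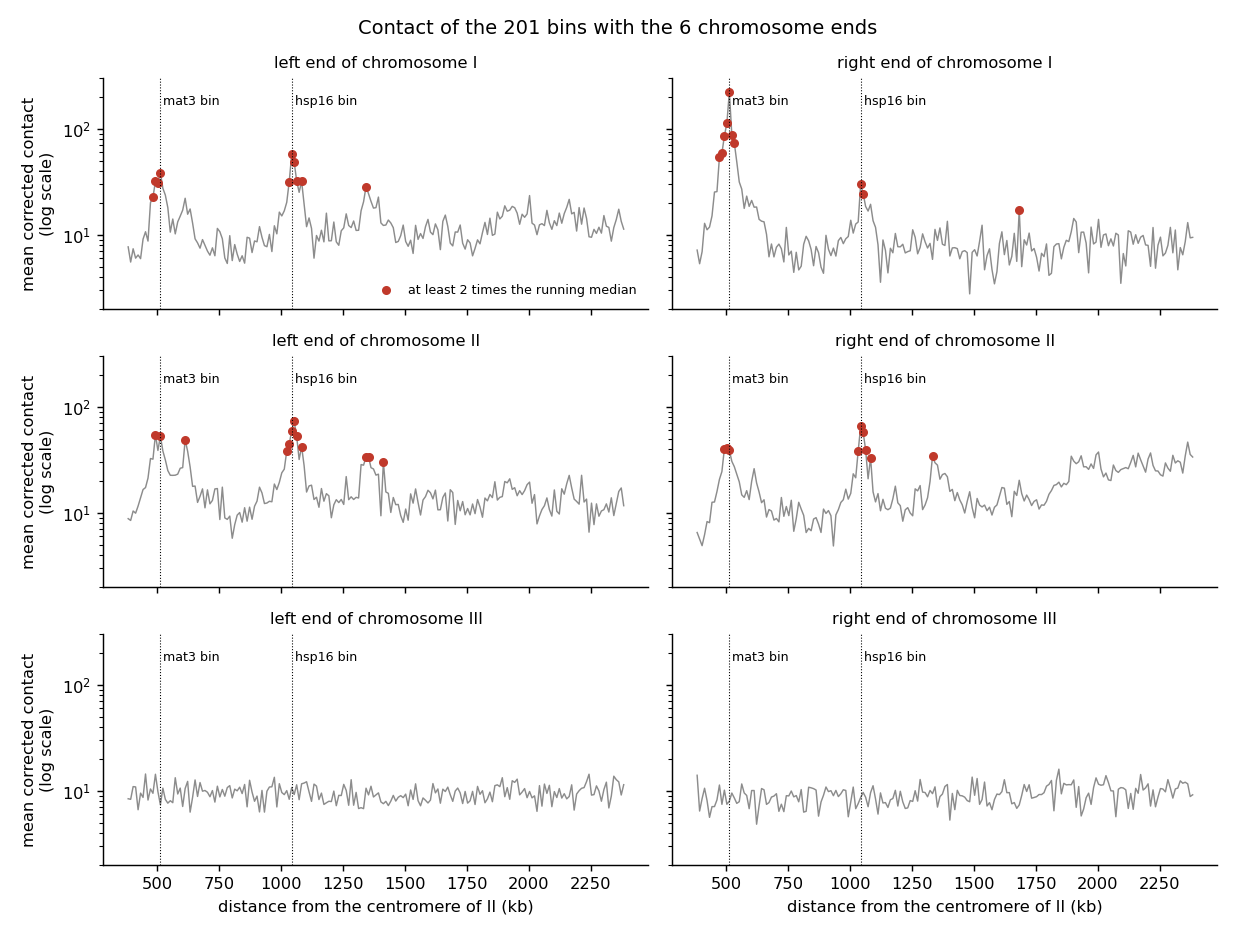
Mean corrected contact (log scale) of the 201 bins with each of the 6 chromosome ends, against distance from the centromere of II. Red points are bins at least 2 times the running median; they gather at the mat3 and hsp16 bins and near 1340 kb, and there are none with the ends of III.

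The mating-type bins met the right end of I above all. Bin 2130001 had a contact of 224 (206 to 243, 584 reads) with that end, 8.78 times the running median (8.09 to 9.53). Its contact with the other ends was 38.7 (31.1 to 47.7) for the left end of I, 53.1 (43.5 to 64.2) for the left end of II and 39.0 (32.3 to 46.7) for the right end of II, or 2.66, 2.2 and 2.18 times the running medians. With the ends of III it had 7.38 (4.68 to 11.1) and 7.99 (5.17 to 11.8), at 0.777 and 0.953 times. In these windows, which differ in distance from the end, contact with the right end of I was thus higher than with each other end by more than the counting error. In single bins about 60 kb from each end the mat3 bin had 79.8 (64 reads) at the right end of I and 39.5 (27 reads) at its left end. At the left and right ends of II it had 35.9 (27 reads) and 54.9 (59 reads). With the running median taken over 200 kb on each side the 8.78 became 16.8.

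The rise around mat3 was broad and had its top in 1 bin. Contact with the right end of I was 25.3 at 2070001, 54.1 at 2090001, 59.1 at 2100001, 85.9 at 2110001 and 113 at 2120001. Beyond the mat3 bin it was 88.0 at 2140001, 73.7 at 2150001, 48.8 at 2160001 and 31.6 at 2170001. The median over the 201 bins was 8.18. On the side of chromosome I the contact was highest at the outermost bins: the mat3 bin had 311 (227 to 416, 45 reads) with 5560001, 284 (245 to 328) with 5550001, 259 (220 to 302) with 5540001 and 184 (154 to 219) with 5530001. It was 79.8 with 5520001 and 54.4 with 5470001, 109 kb from that end. The mat3 bin shared no 30-base word with bins 5530001 to 5560001 of I. The reference used holds mat1 and mat3 but none of the listed mat2 genes, and the part that sequence missing from the reference may have in these contacts was not tested.

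The same bins met all the centromeres. Contact of the mat3 bin was 69.9 (62.1 to 78.5) with centromere II, 54.7 (47.6 to 62.6) with centromere I and 81.2 (69.8 to 93.8) with centromere III, or 1.69, 2.5 and 2.82 times the running medians. The mat1 bin had 70.3, 40.3 and 46.9. Of the bins from 2070001 to 2170001, 2080001 alone shared 30-base words with the centromere windows. The first stretch as a whole had a contact of 45.1 with its own centromere, 30.0 with centromere I and 34.8 with centromere III. The next stretch had 15.9, 10.0 and 9.62, and the remaining 8 had 5.35 to 10.5 with their own centromere and 3.89 to 6.38 with the others. The rise near mat3 can be seen apart from the fall with distance by setting the arm beside the other 5. At 400 to 500 kb from the centromere the right arm of II had 45.4 ± 11.1 with its own centromere (SD, n = 10 bins), against 19.8 to 28.3 on the other arms. At 500 to 600 kb it had 43.2 ± 15.5, against 14.1 to 23.6, and at 600 to 700 kb 16.1 ± 2.81, against 12 to 17.8.

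**Figure D5:**
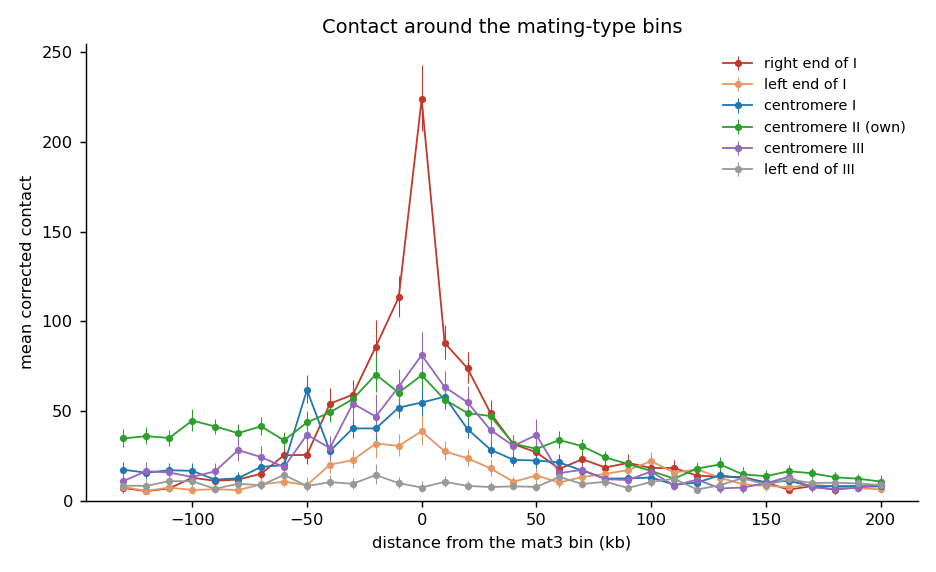
Mean corrected contact of bins around the mat3 bin with both ends of I, the left end of III and the 3 centromeres, against distance from the mat3 bin, with 95% Poisson intervals. Contact with the right end of I rises to 224 at the mat3 bin, contact with the centromeres to 54.7, 69.9 and 81.2, and contact with the left end of III stays near 10 (7.38 at the mat3 bin).

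With its own centromere only 1 of the 201 bins was counted at 2 times the running median (0.498%, all arm bins 0.562%). No bin passed in reads without the correction. The 1 bin was the bin of usp102, a U1 snRNP protein, and vps25, with 10.96 (2.003 times, 1.44 to 2.71, 42 reads). The next were the mat1 and mat3 bins with 1.7 and 1.69 times. With centromere I there were 4 bins (1.99%, all arm bins 1.03%) and with centromere III 5 (2.49%, all arm bins 1.69%). Of these, 2120001, 2130001 and 2140001 were in both sets. The others with centromere III were 2650001 with 2.87 times (28 reads) and 3880001 with 2.16 times (22 reads), which rest on few reads.

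The highest ratio with centromere I, 2.92 (2.57 to 3.3), was at 2080001, and part of it came from a bin with a near copy of one of its genes. Bin 2080001 holds rpl1001 (chrII:2081481-2082343), and bin 3740001 of I, in the centromere window, holds rpl1002 (chrI:3744146-3744906), both for the same ribosomal protein. The contact of this pair of bins was 133 (108 to 163, 95 reads), and 395 of the 30-base words of bin 2080001 recur in its partner. The longest run in common is 149 bases and is printed with 20 bases on either side, capitals marking the run.
rpl1001, chrII:2081725-2081913: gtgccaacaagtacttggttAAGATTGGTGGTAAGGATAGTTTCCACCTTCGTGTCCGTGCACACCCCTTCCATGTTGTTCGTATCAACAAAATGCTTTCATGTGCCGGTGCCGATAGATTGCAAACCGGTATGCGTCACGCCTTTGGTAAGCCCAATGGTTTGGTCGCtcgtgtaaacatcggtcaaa
rpl1002, chrI:3744375-3744563: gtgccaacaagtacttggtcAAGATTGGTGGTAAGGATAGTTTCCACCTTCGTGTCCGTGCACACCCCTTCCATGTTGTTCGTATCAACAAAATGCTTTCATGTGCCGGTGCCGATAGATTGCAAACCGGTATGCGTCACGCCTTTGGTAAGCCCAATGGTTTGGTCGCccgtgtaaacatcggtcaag
Reads from these genes cannot be told apart over that run. Without bin 3740001 the ratio of 2080001 was 2.43 (2.06 to 2.83), and without 3730001 to 3750001 it was 1.75 (1.42 to 2.13). The mat3 bin, which shares no such word with the window, had 2.5 with the whole window and 2.4 without those 3 bins. The neighbours 3730001 and 3750001 share no word with 2080001 and met it at 52.0 (45 reads) and 106 (17 reads).

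In the same end windows, the hsp16 bin met the ends of I and II more evenly than the mat3 bin did. The gene hsp16, which encodes a small heat shock protein, lies at chrII:2660139-2660992 on the minus strand, near the left edge of bin 2660001, and ric8 and mic60 lie nearest its middle. Contact was 57.7 (51.04 to 65.0) with the left end of I, 30.2 (25.2 to 35.9) with the right end of I, 59.7 (51.9 to 68.4) with the left end of II and 65.4 (57.5 to 74.0) with the right end of II. These were 3.91, 3.02, 3.14 and 4.29 times the running medians. With the ends of III it had 10.7 (8.00 to 14.1) and 8.64 (5.95 to 12.1), at 1.03 and 0.986 times. The next bin, 2670001, which holds rad13, an endonuclease of nucleotide excision repair, and fma1, had 48.5, 24.5, 72.9 and 57.7 with the same ends of I and II. Near the right end of I the hsp16 bin met 5500001, which lies 79 kb inward and outside the end window, at 61.3 (48.4 to 76.6, 77 reads). Inside the window it met 5550001 at 17.7 (18 reads) and the outermost bin, 5560001, at 44.6 (10 reads). Bin 80001, 80 kb from the left end of I and inside that end's window, met it at 67.7 (54.0 to 83.8, 84 reads). Its lower window value with the right end of I thus went with a window nearer the end. The mat3 bin met 5500001 at 66.6, 5550001 at 284 and 5560001 at 311. The hsp16 bin shared no 30-base word with 80001, 60001 or 5500001 of I.

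The rise around hsp16 also took in the neighbouring bins. With the left end of II, contact was 38.3 at 2640001, 44.7 at 2650001, 52.8 at 2680001, 31.9 at 2690001, 42.2 at 2700001 and 15.7 at 2720001, where the median over the 201 bins was 13.9. With the 3 centromeres the hsp16 bin had 5.29 with I, 6.72 with II and 7.31 with III, at 0.921, 0.799 and 1.4 times the running medians. Among its neighbours, 2650001 had 2.87 times (1.91 to 4.14) with centromere III, 2690001 had 9.88 with it where the running median was 5.04, each on 28 reads, and 2670001 had 1.59 times (1.12 to 2.21) with centromere I. The other bins at 2 times for the left end of II included 2230001, which holds spt8, a subunit of SAGA, with 48.9 (2.16 times, 1.8 to 2.57), and 2960001 and 2970001 (bmc1, iss9; exg3, aly2), with 33.8 and 33.9. Bins 2960001 and 3030001 held 25633 and 24286 reads, and their ratios with the left end of II rest on 59 and 36 reads. Bin 2950001 held 15944 reads, and its ratio with the right end of II (2.09) rests on 37. With the right end of I, 3300001 (nep1, psl1) was counted at 2.61 times on 19 reads.

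Away from these places, contact with the end of the own arm rose towards it. By stretch, contact with the right end of II was 18.8 in the first, 9.28 in the third, 23.0 in the fourth, which holds hsp16, 13.5 in the sixth and 29.7 in the last. Contact with the right end of I was 47.2 in the first stretch and 7.15 to 12.5 in the others. Contact with the left end of III was 8.56 to 10.4 in all 10, and with the right end of III 8.34 to 10.4. Across the 201 bins the ratios to the ends of I and II varied together, with Pearson's r of 0.46 to 0.74 for pairs of these ends, while r with either end of III was 0.0059 to 0.14. Bins are not independent, the ratios share reads' depth and the mat3 and hsp16 bins, and no p is given.

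When the 8 of the 201 bins with 30527 reads or fewer were left out, together with such bins elsewhere, 7 of the 12 bins for the left end of II were left, 5 of the 9 for the right end of II and 8 of the 10 for the ends of I together. The hsp16 bin was among them for each, and the mat3 bin for the right end of II and the ends of I. The mat1 bin was itself left out for its few reads.

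Not every heat shock gene of the arm lay at such a place. Of 20 names of heat shock genes looked for, some of which name the same gene, all were found in the annotation and 3 genes lie on the 201 bins. The bin of hsp104, which encodes a disaggregase, had 0.858 to 1.32 times the running median with the ends of I and II. The bin of hsp78, its mitochondrial counterpart, lies 60 kb from that of hsp16 and had 0.746 to 1.14 times. Of 8 mating-type gene names, the 4 found (mat1-Mc, mat1-Mi, mat3-Mc, mat3-Mi) all lie on the 201 bins.

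The mat3 and hsp16 bins, both in contact with the same ends, were not in raised contact with each other. The block of 3 by 3 bins centred on 2130001 and 2660001, 530 kb apart, had 0.857 (0.761 to 0.962, 286 reads) of the mean at the same separations. Pairs of bins on opposite sides of mat3 and 510 to 1000 kb apart had 0.798 of that mean. The pair of bins itself had 1.03 (0.721 to 1.44, 35 reads). The mat1 and mat3 bins, 20 kb apart, had 1960 on 663 reads, where the mean over the 201 bins at 20 kb was 2546.

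Few distant pairs within the arm stood out. Of 18336 pairs at least 100 kb apart, 23 (0.125%) had at least 2 times the mean at their separation with at least 10 reads, where the share over all arms was 0.261%. Reads without the correction gave 182 pairs. The middle 95% of the pairs lay at 0.57 to 1.54 times. The highest was 2.39 (1.63 to 3.4, 31 reads), between 2450001 (pst1, izh2) and the last bin (vti1, dad4), but the 3 by 3 block around it had 1.16 (0.992 to 1.34). The pair with the most reads was 2890001 (lcf2, rps2302) with 3480001, the bin of zfs1, an RNA-binding protein that destabilises mRNA. It had 2.23 (1.74 to 2.82, 71 reads), and its block had 1.55 (1.42 to 1.69), the highest block of the 23. The bin of tdh1, for a glyceraldehyde-3-phosphate dehydrogenase, was in 3 pairs, with 3620001, 3490001 and 3980001 at 2.38, 2.04 and 2.15. The bins of ste11 and of mat1 and bin 3460001 were also in 3 each, the mat1 bin on 11 to 18 reads. The pair 2540001 and 3860001, which holds psm1, a cohesin subunit, and ssn6, a co-repressor, had 2.18. Of the 23 pairs, 22 lay more than 500 kb apart, where the mean contact is low and a pair rests on 11 to 71 reads. The 10 highest pairs shared no 30-base word.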

How the data were processed

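Hi-C of the sap1-1 strain was analysed from 1 deposited matrix of corrected signal per pair of 10 kb bins. The submitters' processing notes name Bowtie2 2.1.0 and the build ASM294v2. The deposited signal is normalized so that every bin sums to the same total, and whether the authors pooled the 2 samples is not given in the sources used here. The reads behind the signal were recovered through 1 factor per bin: 100% of values were whole within 0.05, and the 37526864 reads are 99.9% of the 37571192 in the file header. With 11 reads at the median inter-chromosomal pair, values were averaged over windows, with 95% Poisson intervals. With 1 map and 1 group no test was run.

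Genes, HindIII sites and sequences came from RefSeq ASM294v3, whose 3 chromosome lengths equal those of the matrix. Centromere windows reach 50 kb either side of the middle of the gene-free centromere, and the pair expectation is the mean at the same separation on all arms. The genes named are the at most 2 with a symbol nearest the middle of a bin, for the 10 deepest boundaries, the 10 highest bins per kind of partner, the 10 highest distant pairs, the 5 highest and 5 lowest bins in local contact, and the mating-type and heat shock lists. Genes named beside contact with the rest of the arm, and those of other counted bins and pairs, were chosen after their values were seen. The bins and lists were chosen with earlier results of these data known. The scripts, tested on simulated data, ran under Python 3.11.15, with SciPy 1.17.1, NumPy 2.4.6, matplotlib 3.10.9 and pandas 2.3.3. Alternatives were other thresholds, windows and separations, reads without the correction, balancing without the diagonal, and leaving out the 5% of bins with the fewest reads.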

Additional observations from a re-analysis of the deposited data

How the results depend on the processing

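Of 117 alternatives to 22 results, 63 left the value within its counting interval, or a count within 1.5 times, 52 moved it beyond that and 2 took it to the other side of 1. The alternatives for the crossing of mat3, for mat3 with the right end of I, for hsp16 and for end bins with shared sequence were chosen after seeing the data. The decay exponent was -1.16 from 20 to 100 kb and -1.15 from 100 to 1000 kb. Without the bins of fewest reads (61 bins, 8 of them among the 201) the shares were 77.8% for the own arm, 4.64% for the left arm of II, 12.8% for I and 4.71% for III. In reads without the correction the last 3 were 4.79%, 12.9% and 4.66%. The ratio with the left arm of II was 1.45 in uncorrected reads, 1.42 without the bins of fewest reads and 1.42 without the first and last 200 kb. In uncorrected reads and without those ends it was 1.02 and 1.03 with the left arm of I and 1.01 and 1.05 with the right arm of I. Uncorrected reads gave 0.957 for the left arm of III, on the other side of 1, and 0.946 for the right arm of III.

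At 1.5 times the running median the counts were 25 bins for the left end of II, 17 for the right end of II, 20 for the ends of I and 5 for the own centromere. At 3 times they were 2, 2, 4 and 0. Uncorrected reads gave 7, 4 and 0 for the left end, the right end and the centromere of II, and leaving out the bins of fewest reads gave 7, 5 and 0. A running median over 200 kb gave 15 for the right end of II and 0 for the centromere. End windows of 100 kb gave 5 for the right end of II and 6 for the ends of I, and windows of 20 kb gave 1 for the ends of III. Centromere windows of 100 kb gave 0, and windows of 20 kb, which hold 1 bin with values and a median of 1 read, gave 41. Without end bins that share sequence the counts were 14, 10 and 10 for the left end of II, the right end of II and the ends of I. For mat3 with the right end of I, the ratio ran from 6.06 with windows of 100 kb to 16.8 with the wider running median.

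Boundaries numbered 23 with a depth of 0.2 and 58 in uncorrected reads, and of the 36, 16 lay in the same bin there and 35 within 1 bin, the mat3 boundary being 1 bin away. Distant pairs numbered 571 at 1.5 times, 0 at 3 times and 182 in uncorrected reads. The single pair of mat3 and hsp16 bins had 1.03, on the other side of 1 from the block. The spread of local contact over stretches was 0.066 at 50 to 100 kb and 0.054 in uncorrected reads. The causes of these changes were not tested, apart from the thresholds, which pass fewer or more bins by construction. No paired analysis was possible because both samples belong to 1 group and 1 map was analysed, which also left no replicate to leave out.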
